A study of Mus musculus with 5 samples.

Results

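The nuclei described here are myonuclei, the nuclei inside muscle fibers, of mouse hindlimb muscle on either side of birth: wild-type fetuses just before birth (embryonic day E18.5) and wild-type pups 5 days after it (P5). A nucleus was taken as a myonucleus when it held over 400 and under 25000 unique molecular identifiers (UMIs, counted RNA molecules) and at least 1% of them came from Ttn, the gene of the giant sarcomere protein titin. The rule kept 1587 of 4435 deposited nuclei at E18.5 and 1736 of 3848 at P5. These 3323 nuclei were compared, out of 10617 that met the rule among 22301 nuclei of the whole series. The same rule gave 1872 nuclei at E14.5, 4435 in adult and 987 at E18.5 in Cacna1s-/- fetuses, which lack the pore subunit of the skeletal muscle voltage-gated calcium channel, and their levels are given as context.

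The 10x Genomics multiome assay had been used, which gives RNA and chromatin accessibility (ATAC) of each nucleus, in 1 library for each of the 5 groups. The mice were C57BL/6N, and the hindlimb muscles of several animals were pooled, 14 hindlimbs for the E18.5 library and 8 for the P5 library (56 at E14.5, 4 in adult and 26 for the mutant). Nuclei had been sorted with PCM1, a protein of the myonuclear envelope, and PCM1-positive and PCM1-negative nuclei were mixed again before loading, so the share of myonuclei in a library is not that of the tissue. With 1 library on each side no test could be made. A gene is called higher or lower at P5 when its level differed by at least 2-fold, which is a rule of size, and every interval covers counting error only. Age and library cannot be told apart in this comparison.

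Muscle fibers are long multinucleated cells made by fusion of myoblasts. Before birth they are built with embryonic and neonatal isoforms of the contractile proteins, carry acetylcholine receptors of the fetal type and live on fuels delivered through the placenta. After birth the animal moves and breathes on its own, milk brings a diet rich in fat, thyroid hormone rises, and the fibers exchange fetal isoforms for adult ones. The nuclei of the fibers hold both finished and unspliced RNA, so nuclear counts follow transcription more closely than counts of whole muscle do.

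The label fitted the markers. All 12 myonuclear markers were detected in both libraries, with summed levels of 50636 CPM (counts of a gene scaled to the total of these nuclei) at E18.5 and 65435 CPM at P5, of which Ttn, partly fixed by the rule, gave 26437 and 30835. The nuclei held 12803266 UMIs at E18.5 and 12276836 at P5, with medians of 6997 and 6438 UMIs per nucleus. Just inside the limit, 157 and 132 nuclei had 1 to 1.5% of Ttn, and just outside it 111 and 91 nuclei had 0.5 to 1%. Markers of other cell types were present. All 12 mesenchymal markers were detected at both ages, with summed levels of 1337 and 1453 CPM, and 28.3% of the E18.5 and 27.5% of the P5 nuclei held at least 3 UMIs of them. Macrophage markers summed to 107 CPM at E18.5 and 356 at P5, of which Mrc1 made 48.7 and 293, while the 10 myogenic progenitor markers summed to 190 and 88.1 CPM. Schwann and glial markers summed to 140 and 57.3 CPM, and adipocyte markers to 35.0 and 103. Smooth muscle and pericyte markers summed to 357 and 449 CPM, and 43.4% and 49.5% of the nuclei held at least 3 UMIs of them. Of these sums Abcc9, also a member of the list of excitability genes below, made 229 and 384 CPM. The part of such RNA in the results was not tested, and values without the mesenchymal-marker nuclei are given where they matter. Doublets were not removed, and 33 barcodes occurred in both libraries.

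Far more genes were lower after birth than higher, although the higher genes took up a large share of the RNA. Of 14558 genes with at least 20 UMIs in 1 library, 1124 (7.72%) were at least 2-fold higher at P5 and 3121 (21.4%) at least 2-fold lower, and 10313 stayed within 2-fold. The 1124 higher genes went from 4.67% of all UMIs at E18.5 to 13.9% at P5, and the 3121 lower genes from 13.7% to 4.45%. CPM is a share of the total, so the level of each gene depends on all others, and the median gene had a log2 ratio of -0.37. With TMM scaling, which sets the typical gene level, every log2 ratio was 0.35 higher and the median was -0.03. The split was then even, with 1748 genes higher (12.0%) and 1858 lower (12.8%). The genes named below are past 2-fold under both scalings unless a sentence says otherwise. Counts of called genes in each list below are to be set against these shares of all genes.

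**Figure D1:**
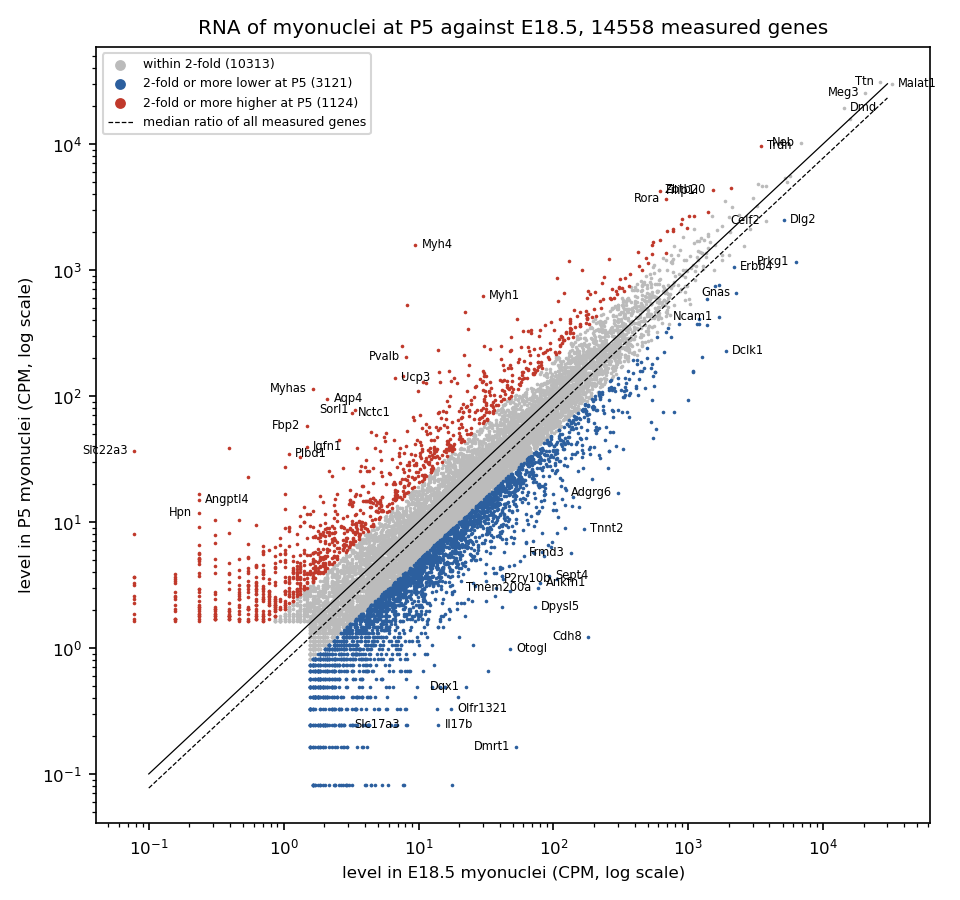
Level of each of 14558 measured genes in CPM, on log axes, in E18.5 myonuclei (x axis) and P5 myonuclei (y axis), 1 point per gene, colored by the 2-fold rule, with genes at 0 UMIs drawn at 3 counts. The solid line is equal level and the dashed line the median ratio, below it, and Myh4 and Slc22a3 lie far above while Cdh8 and Dmrt1 lie far below both lines.

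Shorter genes sat lower at P5 than longer ones. In 1489 genes spanning under 5 kb the median log2 ratio was -0.81 in CPM, and it was -0.54, -0.35 and -0.19 in genes of 5 to 20, 20 to 50 and 50 to 100 kb. Genes over 100 kb stood at -0.04, and their share of all UMIs was 42.9% at E18.5 and 48.8% at P5. The same order, with smaller steps, was seen in the nuclei of the same libraries with under 0.1% of Ttn, where the medians ran from -0.34 in the shortest to 0.10 in the longest genes. Gene length, which in nuclei goes with intron reads, therefore moved with the ratios, and its part in any list below was not tested.

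The adult fast myosins, the motor proteins of fast fibers, were all higher at P5. Their genes lie side by side on chromosome 11. Myh4, the myosin of the fastest (type 2B) fibers (chr11:67238029-67260446, plus strand, GRCm38), had 121 UMIs at E18.5 and 19493 at P5, or 9.45 and 1588 CPM, which is 168-fold higher (interval 141 to 203). It stood at 0.786 CPM at E14.5, 2976 in adult and 5.85 in the mutant. Only P5 and adult were high, and the 3 prenatal libraries were all under 10 CPM. Myh1, of type 2X fibers, had 11, 30, 622 and 819 CPM from E14.5 to adult, and Myh2, of type 2A fibers, went from 9.92 CPM at E18.5 to 109 at P5, 11-fold higher. Myhas, the antisense RNA that starts next to Myh4, was 69.1-fold higher (1.64 and 113 CPM). Whether reads were assigned by strand is not given in the sources used here, and the myosin genes are closely alike in sequence, so reads may be shared among Myhas, Myh1 and Myh4. Pvalb encodes parvalbumin, a calcium buffer that lets fast fibers relax quickly. No UMI of it was found at E14.5, and its level went from 8.12 CPM in fetuses to 202 in pups and 704 in adult mice, so that it was 24.8-fold higher at P5.

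In single nuclei the adult myosins were split among nuclei rather than spread evenly. For this, each nucleus was thinned to 1000 UMIs, which left out 5 nuclei at E18.5 and 78 at P5. Myh4 was then seen in 0.822% of 1582 nuclei at E18.5 and 42.6% of 1658 at P5 (unthinned 2.46% and 53.6%). In endothelial-marker nuclei of the P5 library, which should lack it, 1.18% held a Myh4 UMI, at median depths of 5525 UMIs there and 6438 in the myonuclei. Myh1 was seen in 1.71% and 22.3% of myonuclei. At P5 only 58 nuclei held both, which is 15.7% of the 369 nuclei with Myh1, against 42.6% of all nuclei. Myh8, the neonatal myosin, was present in 76.7% of nuclei at E18.5 and 68.7% at P5. It was found in 53.8% of the P5 nuclei with Myh4 and 86.2% of those with Myh1. Myh3, the embryonic myosin, dropped from 52.5% to 4.58% of nuclei, and only 6 P5 nuclei held Myh3 and Myh4 together. These are shares of nuclei of 1 library each, and a UMI of a neighbor's free RNA counts as well.

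Many of the genes with the highest ratios handle fuel, water and transport, and 9 of the 15 highest had their top level of all 5 libraries at P5 rather than in adult. Slc22a3, an organic cation transporter (chr17:12418960-12507704, minus strand), had 1 UMI at E18.5 and 448 at P5. Its levels from E14.5 to adult were 1.28, 0.0781, 36.5 and 2.42 CPM, with 1.71 in the mutant, so the ratio of 467 (interval 83.4 to 18494) rests on that single fetal UMI. P5 was far above every other library. Angptl4, a secreted inhibitor of lipoprotein lipase, had 3 UMIs at E18.5 and 182 at P5, with 0.983, 0.234, 14.8 and 0.656 CPM from E14.5 to adult (63.3-fold, interval 21.3 to 310). Aqp4, the water channel of the fast fiber membrane, had 0 UMIs at E14.5, then 2.11, 95.1 and 35.0 CPM, and was 45.1-fold higher at P5. Fbp2, the muscle fructose-bisphosphatase of glycogen resynthesis, had 0.393, 1.48, 57.3 and 16.7 CPM and was 38.6-fold higher (24.5 to 64.5). All 3 of these genes stood lower in adult than at P5. Slc22a3 and Angptl4 were also higher in nuclei with under 0.1% of Ttn, at 1.06 and 10.2 CPM and at 0.728 and 9.68 CPM, and the thinned share of P5 myonuclei with Angptl4, 1.63%, had an interval that overlapped that of endothelial-marker nuclei, 1.18%.

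Ucp3, the uncoupling protein of muscle mitochondria, had 0.885, 6.64, 140 and 135 CPM and was 21.1-fold higher, and its level in the mutant was 23.0 CPM, above that of the wild type at the same age. Hpn, a membrane serine protease, was 50.4-fold higher on 3 UMIs at E18.5 and 145 at P5. Plbd1, a phospholipase-like lysosomal protein, was 31.4-fold higher, and Igfn1, a protein of the Z-disc region, 26.5-fold. Sorl1, a sorting receptor, was 22.8-fold higher, with 76.6 CPM at P5 and 86.6 in adult. Nctc1, a noncoding RNA whose gene lies between Tnnt3 and Igf2 on chromosome 7, was 23.0-fold higher at P5. It went on to 1080 CPM in adult. Thus 6 of the 15, the myosin transcripts, Pvalb, Nctc1 and Sorl1, were highest in adult.

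**Figure D2:**
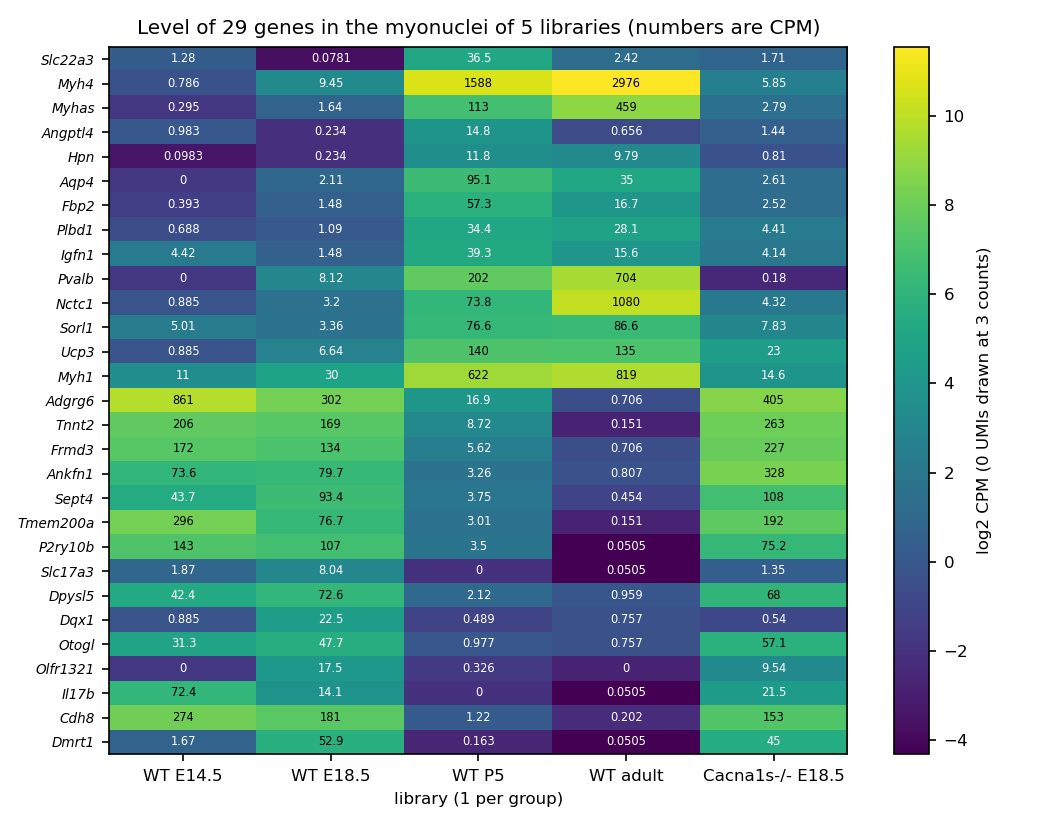
Level of 14 of the 15 genes with the highest and the 15 with the lowest ratio of P5 to E18.5 (rows) in the myonuclei of all 5 libraries (columns), colored by log2 CPM with 0 UMIs drawn at 3 counts, and with the CPM printed. Slc22a3 reached 36.5 CPM in pups and 2.42 or less in the other libraries, Myh4 went on to 2976 CPM in adult mice, and Dmrt1 was at 52.9 CPM in fetuses and 0.163 in pups.

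The genes with the lowest ratios were of several kinds: adhesion molecules, signaling receptors, a cardiac troponin, and RNAs known from other tissues. Cdh8, a classical cadherin of cell adhesion (chr8:99024471-99416471, minus strand), had 2315 UMIs at E18.5 and 15 at P5. It stood at 274, 181, 1.22 and 0.202 CPM from E14.5 to adult and 153 in the mutant, and was 148-fold lower at P5 (89.5 to 265). It was high in each prenatal library and low in both later ones. It was present in few nuclei even at E18.5, 6.51% after thinning. Adgrg6, an adhesion G protein-coupled receptor, had 861, 302, 16.9 and 0.706 CPM and was 17.9-fold lower. Tnnt2, cardiac troponin T, had 206, 169, 8.72 and 0.151 CPM and was 19.4-fold lower. Its share of thinned nuclei was 14.7% and 0.603%.

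A second kind was highest at E18.5, with lower levels both before and after. Dmrt1, a transcription factor best known from the testis (chr19:25505618-25604329, plus strand), stood at 1.67 CPM in the embryo, 52.9 in fetuses and 0.163 in pups, where 2 UMIs were found, and at 45.0 in the mutant. The ratio was 325-fold lower, with an interval of 89.5 to 2686. It was seen in 15.3% of unthinned E18.5 nuclei and 0.0576% at P5. Dqx1 followed the same course, with 0.885, 22.5 and 0.489 CPM, but stood at only 0.540 CPM in the mutant at the age at which the wild type was high. Olfr1321, an odorant receptor gene, was absent from the embryonic counts, with 0 UMIs, and had 17.5 CPM in fetuses and 0.326 in pups, and Slc17a3, an anion transporter, had 1.87 and 8.04 CPM and 0 UMIs at P5, at least 32.9-fold lower. Dpysl5, a collapsin response mediator, was 34.3-fold lower. Together 5 of the 15 lowest genes had their top level in the wild-type E18.5 library, 5 at E14.5 and 5 in the mutant.

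Il17b, a cytokine, had 180 UMIs at E18.5 and 0 at P5, at least 57.5-fold lower, and its level at E14.5 was 72.4 CPM. Otogl, related to inner-ear otogelin, was 48.8-fold lower. P2ry10b, a lysophospholipid receptor family gene, was 30.4-fold lower, and Tmem200a, Sept4 (a septin), Ankfn1 and Frmd3 were 23.9- to 25.4-fold lower. In nuclei with under 0.1% of Ttn, Frmd3 had 18 and 16.2 CPM and Adgrg6 45.7 and 45.6 CPM at E18.5 and P5, levels far below that of E18.5 myonuclei. Of the 30 genes, 11 had too few UMIs in those other nuclei to be measured. Of the 19 measured, 11 were past 2-fold in the same direction there, 8 were within 2-fold and 0 were past it in the opposite direction.

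The genes with the largest changes in amount were mostly long ones. Trdn (triadin, which anchors the calcium release complex) went from 3465 to 9658 CPM, 2.79-fold, and Filip1l, a filamin-interacting protein, from 614 to 4253 CPM, 6.92-fold. Rora, a nuclear receptor, went from 687 to 3656 CPM, 5.32-fold, and Zbtb20, a zinc-finger repressor, from 1516 to 4320 CPM, 2.85-fold. Neb (nebulin), Dmd (dystrophin), Meg3 and Ttn were also among the 8 largest rises in CPM units, at 1.17- to 1.48-fold, inside the 2-fold limits. Among the largest falls, Prkg1, the cGMP-dependent kinase, went from 6307 to 1146 CPM, 5.51-fold lower. Dclk1, a microtubule-binding kinase, went from 1906 to 225 CPM, 8.46-fold lower. Ncam1, the adhesion molecule that marks young fibers, was 4.03-fold lower and Gnas 3.46-fold lower. Dlg2 and Erbb4 were 2.05- and 2.08-fold lower in CPM and within 2-fold with TMM.

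The exchange of isoforms was followed with 34 pairs of a fetal or widely used gene and its adult muscle partner, where the ratio of both within a library is free of any scaling. Gene lengths differ between partners, so only the change of the ratio is read. The balance moved toward the adult partner by at least 2-fold in 23 of 33 measured pairs and away from it by that size in 1, and the change was above 0 in 31. The median change over the 33 pairs was 2.06 log2 units. Myh3/Myh4 moved most, by 10.80 log2 units (interval 10.53 to 11.07), followed by the acetylcholine receptor subunits Chrng/Chrne with 7.20 (6.41 to 7.99). The fatty acid binding proteins Fabp5/Fabp3 moved by 5.05 and the troponins Tnnt2/Tnnt3 by 4.39. Smaller shifts occurred in the troponins Tnnc1/Tnnc2 (2.48) and Tnni1/Tnni2 (2.45), the calcium pumps Atp2a2/Atp2a1 (2.10) and the calcium buffers Casq2/Casq1 (2.06).

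Which partner differed depended on scaling. Of the 23 pairs that moved, in CPM 12 had a fetal partner past 2-fold lower and an adult partner within 2-fold, 4 had only the adult partner past 2-fold higher, 5 had both, and 2 neither. With TMM the counts were 9, 7, 4 and 3. Tnnt2 was 19.4-fold lower while Tnnt3 had 707 and 765 CPM. Casq1 (262 and 473 CPM) and Atp2a1 (921 and 1824 CPM) passed 2-fold with TMM only, and their fetal partners Casq2 and Atp2a2, like Mbnl3, passed it in CPM only. In the glycolytic pairs Pfkp/Pfkm, Eno1/Eno3 and Pgam1/Pgam2 the widely used partner was lower by 4.37-, 2.46- and 3.57-fold and the muscle partner stayed within 2-fold. The difference in Eno1 was within 2-fold with TMM.

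Some pairs did not move. Ckb/Ckm, the brain and muscle creatine kinases, changed by -0.15 log2 units (-0.66 to 0.37), and Ckm had 357 and 353 CPM. The ryanodine receptors Ryr3/Ryr1 changed by 0.07 (0.04 to 0.11), with the partners 1.31- and 1.38-fold higher. Dystrophin and utrophin (Utrn/Dmd) shifted by 0.91, below the limit. Cpt1a/Cpt1b went the other way, by -1.47 (-1.81 to -1.14). Both carnitine palmitoyltransferases, which let fatty acids into mitochondria, were higher at P5, but Cpt1a, the liver type, went from 8.20 to 52.4 CPM and Cpt1b, the muscle type, from 35.8 to 82.2. In nuclei with under 0.1% of Ttn, Cpt1a was 4.95-fold higher at P5, with 201 and 626 UMIs, and Cpt1b 1.32-fold. The part of RNA from other cells in this pair was not tested.

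**Figure D3:**
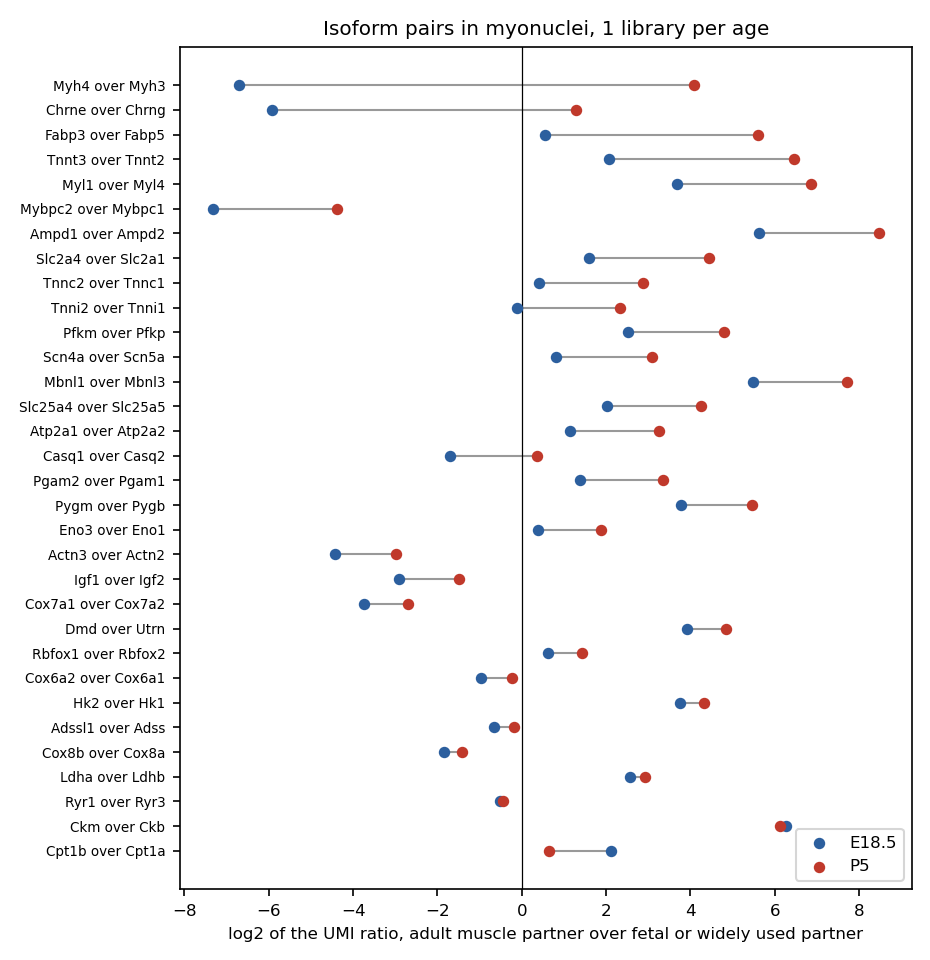
Log2 ratio of UMIs of the adult muscle partner to the fetal or widely used partner in E18.5 (blue) and P5 (red) myonuclei, for 32 of the 33 measured pairs (rows), with a line joining both ages and 0 marking equal UMIs. The P5 point lies to the left for Ckm over Ckb and for Cpt1b over Cpt1a and to the right in the other pairs, farthest for Myh4 over Myh3, which crosses 0.

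Genes of fatty acid use moved together. Of 31 measured genes, 18 were higher at P5 and none lower, against 7.72% and 21.4% of all genes, and their median log2 ratio was 1.20 against -0.37. With TMM the count was 24 and 0. Pdk4, the kinase that turns pyruvate away from oxidation, went from 7.65 to 144 CPM (18.8-fold), and the thinned share of nuclei with it went from 1.01% to 12.4%. Fabp3, the fatty acid carrier, went from 8.04 to 39.8 CPM, and Slc27a1, a fatty acid transporter, from 12.0 to 56.3. Ppargc1a, Cd36, Lpl, Lipe and Pnpla2, named here after their values were seen, were among the 18. Some genes of this list are also active in adipocytes, whose markers summed to 35.0 and 103 CPM in these nuclei. Of these sums Plin4, itself a member of the list, made 19.9 and 55.7 CPM. The part of adipocyte RNA was not tested. In nuclei with under 0.1% of Ttn, 8 of 30 measured genes of the list were higher and none lower. Myh4 also went from 1 to 80 UMIs in those nuclei, and whether their RNA came in part from fibers was not tested.

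The glycolysis and glycogen list had 8 of 30 genes higher and none lower, with a median of 0.26 (12 and 0 with TMM). The 8 act in glycogen storage and use or in side branches. Phkg1, the catalytic subunit of phosphorylase kinase, went from 107 to 861 CPM (8.04-fold), and Pygm, the muscle glycogen phosphorylase, from 227 to 495. Gpd2, the mitochondrial glycerol phosphate dehydrogenase, was 4.93-fold higher and Pfkfb1, which sets fructose 2,6-bisphosphate, 4.65-fold. Pfkm, Pgam2, Eno3 and Ldha were within 1.15-fold of the fetal level. By contrast the 40 nuclear genes of oxidative phosphorylation held none higher and 3 lower, Ndufb5, Cox6b1 and Cycs, with a median of -0.45, and with TMM none of the 40 was past 2-fold. Their median span was 7.61 kb, in the range of gene length whose median was -0.54. In amino acid and creatine metabolism 1 of 25 genes was higher and 4 lower, against 7.72% and 21.4% of all genes. The serine synthesis enzyme Psat1 (9.08-fold), Shmt2 and the asparagine synthetase Asns (4.41-fold) were lower, while the alanine aminotransferase Gpt was 2.50-fold higher.

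Of 23 receptors and enzymes of hormone signaling 12 were higher and 1 lower, against 7.72% and 21.4% of all genes, with a median of 1.16. In nuclei with under 0.1% of Ttn 6 of 25 were higher and 1 lower, with a median of 0.26. Thrb, the beta receptor of thyroid hormone, went from 11.3 to 127 CPM (11.2-fold), and Esr1, the estrogen receptor, from 30.8 to 151 (4.92-fold). Thrb was also seen in 3.79% of P5 endothelial-marker nuclei after thinning, against 10.9% of myonuclei. Fkbp5, a target and partner of the glucocorticoid receptor, was the lower one, at 73.5 and 15.6 CPM. In the other nuclei Esr1 was 9.39-fold and Thrb 4.01-fold higher and Fkbp5 4.19-fold lower. In the clock list 5 of 19 genes were higher and none lower (median 0.34), among them Per3 (4.20-fold), Bhlhe41 (5.07-fold) and Nr1d2 (2.97-fold). In the other nuclei 5 of 20 were higher and 1 lower, with Per3 2.19-fold, Bhlhe41 2.24-fold and Nr1d2 5.72-fold higher. The time of day of tissue collection is not given in the sources used here, and its part was not tested.

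Excitability genes, which set how the fiber membrane fires, had 10 of 27 genes higher and 5 lower, with a median of 0.49. Kcnq5, a potassium channel, went from 108 to 564 CPM (5.21-fold). Clcn1, the chloride channel that steadies the adult membrane, went from 46.0 to 166 CPM, and Scn4a, the adult sodium channel, from 39.9 to 99. The T-type calcium channels Cacna1h (4.01-fold) and Cacna1g were lower, the latter within 2-fold with TMM. In the calcium list 4 of 24 were higher and 3 lower in CPM, and 8 and 1 with TMM. Slc8a3, the sodium-calcium exchanger, went from 131 to 1186 CPM (9.08-fold) and Jph1, which ties the tubule to the reticulum, from 1018 to 2681. Sln, an inhibitor of the calcium pump, was 3.68-fold lower.

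In the neuromuscular junction list 1 of 22 genes, Chrne, was higher and 7 lower in CPM, where 21.4% of all genes were lower, and 2 and 6 with TMM, where 12.8% were. The median was -0.23 in CPM and 0.11 with TMM. Erbb3, a neuregulin receptor, was 7.37-fold lower, Nrg1 5.20-fold and Lama5, a laminin, 4.66-fold. Nrg1 was 22.9-fold lower in nuclei with under 0.1% of Ttn, with 10030 and 276 UMIs. Its log2 ratio in myonuclei turned to 0.14 without nuclei holding markers of any other class. That limit left 531 nuclei at E18.5 and 468 at P5, and its markers include Abcc9 of the excitability list. Erbb3 is also a Schwann cell marker, and the Schwann and glial markers summed to 140 and 57.3 CPM in these nuclei. In the fusion list 7 of 17 were lower and 1 higher in CPM, and 5 and 2 with TMM. Mymk, which with Mymx drives membrane fusion of myoblasts, went from 41.3 to 3.75 CPM (11-fold lower), and Mymx from 6.48 to 0.489 CPM. Jam2, an adhesion molecule of fusion, went from 253 to 26.6 CPM and Cdh15 was 5.71-fold lower. Stab2 was the higher one (4.60-fold). Without nuclei that held mesenchymal markers the fusion list stood at 10 lower and 2 higher, with a median of -1.69 in place of -0.19. Progenitor markers were lower too, at 190 and 88.1 CPM, and their part was not tested.

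The thick filament, thin filament and Z-disc list was divided, with 14 of 54 genes higher and 8 lower and a median of 0.12. Beside the myosins, Myoz3 (calsarcin 3, of fast Z-discs) was 7.62-fold higher, Mybpc2 (fast myosin-binding protein C) 6.97-fold and Actn3 3.12-fold. Among the 8 lower ones were Myh3, Tnnt2, Tnnt1, Tnni1, Tnnc1, Myl4 and Mybph, most of them fetal, slow or cardiac isoforms (Tnnt1 and Mybph are named here after their values were seen). In the costamere list 4 of 35 were higher and 4 lower, against 7.72% and 21.4% of all genes. Synm (3.22-fold) and Ank3 were among the higher, Itga6 (5.06-fold) and Sorbs2 (3.75-fold) among the lower. Transporters had 8 of 29 higher and 4 lower, with Slc25a33 5.01-fold and Slc16a10 3.64-fold higher. Ubiquitin ligases and kelch proteins had 7 of 28 higher and 1 lower. Klhl33 went from 1.33 to 32.8 CPM (24.7-fold) and Asb14 from 4.45 to 51.8 (11.6-fold), and Asb5 and Kbtbd12 were 5.48- and 3.09-fold higher. Growth and atrophy genes had 6 of 36 higher and 4 lower. Ddit4l, which restrains mTORC1, was 7.52-fold higher, and the ligase subunits Fbxo40 and Fbxo32 (atrogin-1) were 3.39- and 2.57-fold higher.

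Among 58 measured transcription factors 9 were higher and 10 lower, with a median of 0.01. Sox11, of progenitors and fetal tissue, went from 123 to 13.7 CPM (8.98-fold lower), and Myog, Klf5 and Tead4 were 5.00-, 5.00- and 3.64-fold lower. Nr4a3 (8.56-fold), Nr4a1 and Maf (2.61-fold) were higher. In nuclei with under 0.1% of Ttn Sox11 was 2.64-fold lower and Nr4a3 5.53-fold higher, while Myog, Klf5, Tead4, Nr4a1 and Maf were within 2-fold. Immediate early genes were mixed in myonuclei, with 5 of 18 higher, Atf3 among them (7.43-fold), and 5 lower, with Egr1 4.02-fold lower. Splicing factors had 2 of 26 higher, Mbnl1 and Rbfox3, and 4 lower, and 5 and 1 with TMM, so their shares in CPM were near or below those of all genes. The let-7 and oncofetal list held 5 of 14 lower and none higher, with a median of -0.86. Hmga2, a chromatin protein of fetal growth, went from 71.9 to 5.62 CPM (12.8-fold lower) and Igf2bp1 from 60.3 to 5.38. Mycn was 10.2-fold lower, and Trim71 had 1 UMI at P5. Of 13 genes of this list measured in nuclei with under 0.1% of Ttn, 3 were lower and none higher (median -0.65). Hmga2 was 5.82-fold lower there, with 2508 and 271 UMIs, and Igf2bp1 4.65-fold, with 1265 and 171. Part of the list was therefore lower in those nuclei too, and the part of RNA from other cells was not tested. Imprinted genes had 9 of 29 lower and 1 higher, with a median of -0.59, and with TMM 4 lower and 2 higher, near the shares of all genes. Magel2 went from 96.6 to 6.27 CPM and Peg10 from 125 to 18.1, and the growth inhibitor Cdkn1c was 3.14-fold lower. Nnat was the higher one, at 9.22 and 19.1 CPM, and it turned below 1-fold once mesenchymal-marker nuclei were removed. In nuclei with under 0.1% of Ttn 4 of 28 imprinted genes were lower and none higher. Magel2 was 3.41-fold, Peg10 3.60-fold and Cdkn1c 1.95-fold lower there.

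Adhesion and matrix genes, like those of fusion, depended on which nuclei were kept. Of 40 adhesion and guidance genes 7 were higher and 8 lower, with Sema6a (788 and 74.9 CPM) and Tenm4 (530 and 61.7 CPM) the lowest after Cdh8. Without mesenchymal-marker nuclei 6 were higher and 17 lower, and the median went from -0.28 to -0.93. Of 34 matrix genes 2 were higher and 5 lower, against 7.72% and 21.4% of all genes. Without mesenchymal-marker nuclei 1 was higher and 11 lower, and the median went from -0.22 to -0.79. Col1a1 and Col3a1, members of this list, are also among the markers by which those nuclei were removed. Col25a1, a collagen of motor innervation, was 3.21-fold lower, Fbn2 3.09-fold and Tnc 2.75-fold, while Col15a1 was 2.45-fold higher with all nuclei and lower without those nuclei.

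The cell cycle list and the ribosomal protein list were the lowest of the 25. Of 26 cell cycle genes 19 were lower and none higher, with a median of -1.34, and with TMM 13 were lower. Cdkn1a, the inhibitor p21, was 4.60-fold lower, Ect2 4.22-fold and Top2a 3.80-fold. In nuclei with under 0.1% of Ttn the same list had 19 of 26 genes lower with a median of -1.10. Ect2 and Top2a were 2.72- and 2.98-fold lower there, while Cdkn1a, with 95 and 73 UMIs, was within 2-fold. Muscle fiber nuclei do not divide, and the part of RNA from other cells in this list was not tested. Of 35 ribosomal protein and elongation factor genes 31 were lower and 1 higher, with a median of -1.42 and 19 lower with TMM. Rps29, Rps27 and Rpl18 were 3.99-, 3.48- and 3.17-fold lower. The elongation factors moved in opposite directions: Eef1a1, the common form, went from 149 to 43.4 CPM, and Eef1a2, the form of adult muscle and brain, from 9.76 to 44.6 CPM (4.57-fold higher). The ribosomal genes had a median span of 3.78 kb, in the shortest bin, whose own median was -0.81. In nuclei with under 0.1% of Ttn none of 34 was past 2-fold, and their median was -0.58. The 6 RNAs of the sex chromosomes were all within 2-fold.

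**Figure D4:**
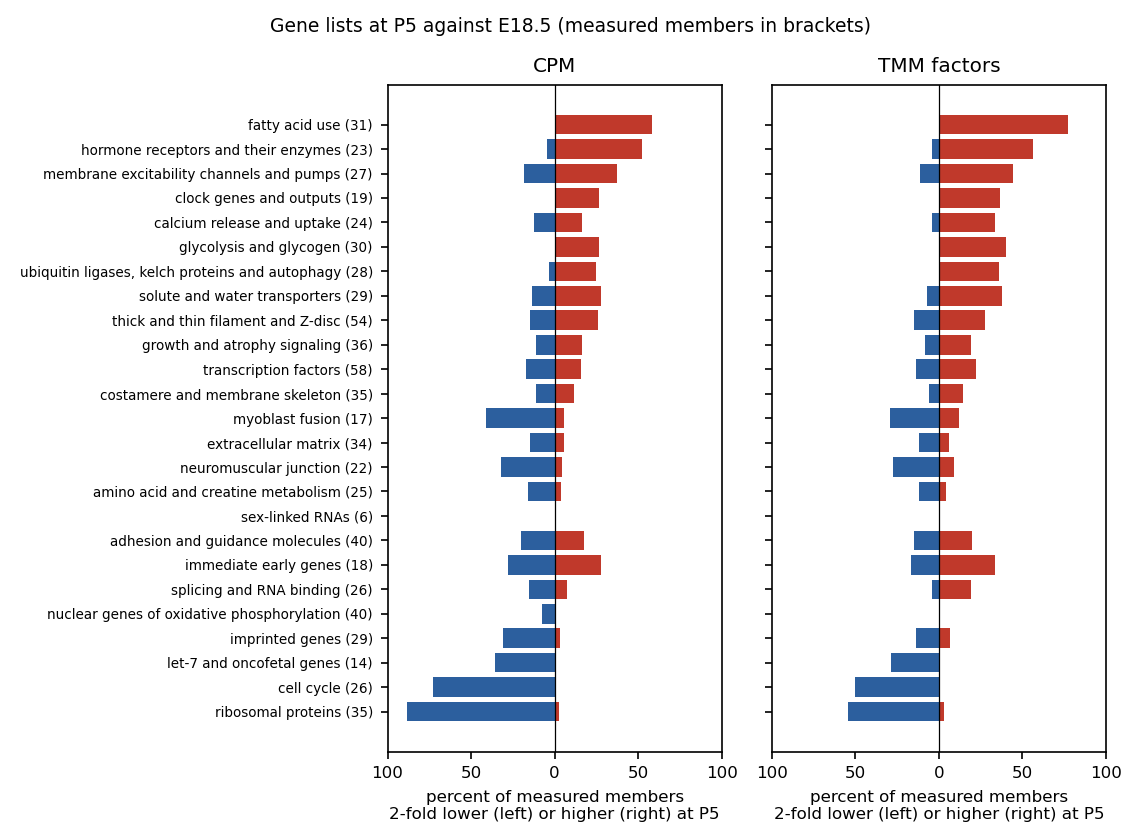
Percent of the measured members of each of 25 gene lists (rows, number measured in brackets) that were at least 2-fold lower (blue, to the left) or higher (red, to the right) at P5, in CPM (left panel) and with TMM factors (right panel), ordered by the CPM median. Fatty acid use, with 18 of 31 higher in CPM, is at the top and ribosomal proteins, with 31 of 35 lower, are at the bottom, and blue bars are shorter with TMM.

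Among genes with a start peak in both libraries, far fewer were past 2-fold in ATAC than in RNA. ATAC counts of the same nuclei, 15322296 at E18.5 and 11987817 at P5, were summed over peaks within 500 bases of a start and scaled to the total of all ATAC counts (ATAC CPM). Of 12488 genes with a peak there in both libraries, 145 (1.16%) were at least 2-fold higher at P5 and 170 (1.36%) lower. This split depended on the nuclei and the scaling: without mesenchymal-marker nuclei 181 were higher and 453 lower, and scaled to peaks shared by both libraries 103 and 289. Among genes higher in RNA, 75 of 783 (9.58%) were higher in ATAC and 6 lower, with a median log2 ratio of 0.29 against 0.07 over all genes. Among genes lower in RNA, 94 of 2472 (3.80%) were lower in ATAC and 11 higher, with a median of -0.07. RNA and ATAC counts come from the same nuclei and the same library. Genes with a start peak in 1 library only have no ratio and are left out of these counts.

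Among genes named by ratio and genes of the isoform pairs, the largest start-site ratios were in part those of the fuel genes. At the start of Angptl4 the ATAC level was 4.19-fold higher at P5 (3.38 to 5.22), at Hpn 2.81-fold, at Fbp2 2.77-fold (2.41 to 3.19) and at Cpt1b 2.48-fold. The starts of Adssl1, Myh1, Slc22a3 and Pygm were 2.13- to 2.36-fold higher. Adssl1 RNA was only 1.41-fold higher. In the other direction the start of Chrng was 3.36-fold lower (2.80 to 4.07), with 40.1 and 11.9 ATAC CPM, and those of Tnnt2 and Tmem200a were 2.95- and 2.44-fold lower. Some genes named by list were past 2-fold as well. Among them Bhlhe41 was 2.92-fold and Ddit4l 2.54-fold higher, and Nrg1 was 2.27-fold and Col25a1 2.16-fold lower. Where both libraries had a peak at the start of 1 of the 30 genes, the ATAC ratio was on the same side as the RNA ratio: 9 of 9 higher genes and 6 of 6 lower genes. These are the genes with the most extreme RNA ratios, and the share on the same side was not counted over all genes. Some other named genes, such as Ank3, Cox6b1 and Gnas, had RNA and ATAC ratios on opposite sides. The median ATAC log2 ratio was 0.29 over all genes higher in RNA and -0.07 over all lower ones.

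Some starts had a peak in 1 library only. The Myh4 and Myhas starts shared a peak listed at P5 alone (33.2 ATAC CPM), and Ucp3 (27.4) and Ampd1 (21.7) also had a start peak only at P5. Myh3 (27.7), Tnni1, Cdh8 and Dmrt1 had a start peak only at E18.5, and so did Casq1, Atp2a1 and Ckb, whose RNA was 1.10- to 1.98-fold of the fetal level. Peaks were called in each library over all its nuclei, with 91265 at E18.5 and 67013 at P5, so an unlisted peak does not mean closed chromatin. Of all measured genes 0.653% had a start peak at P5 only and 2.93% at E18.5 only. Among genes higher in RNA 2.76% had it at P5 only and 5.87% at E18.5 only, and among genes lower in RNA 0.545% and 4.77%. Aqp4, Igfn1, Nctc1, Otogl, Dqx1, Slc17a3, Il17b, Olfr1321, P2ry10b, Ankfn1 and Chrne had no start peak in either.

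**Figure D5:**
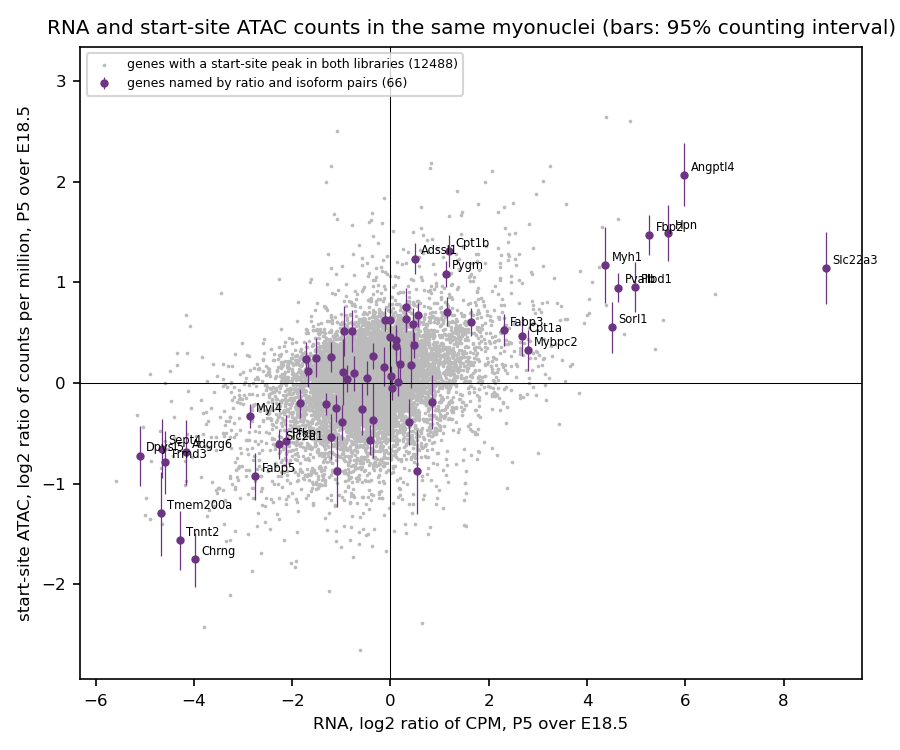
Log2 ratio of P5 to E18.5 in RNA CPM (x axis) and in start-site ATAC CPM (y axis) for 12488 genes with a start peak in both libraries (gray points), with most genes named by ratio and of the isoform pairs in purple and their 95% counting intervals in ATAC as bars. The cloud is wide in RNA and narrow in ATAC, and of the purple points Angptl4 is highest in ATAC (4.19-fold higher) and Chrng lowest (3.36-fold lower).

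The promoters of 6 genes are shown, 3 with a start peak listed in 1 library only (Myh3, Myh4 and Ucp3) and 3 with a start-site ratio past 2-fold (Chrng, Tnnt2 and Fbp2), chosen after their values were seen, as the 250 bases before the RefSeq start (GRCm38.p6), written 5′ to 3′ along the gene. Capitals mark matches, on either strand, to the E-box CAGCTG, MEF2 CTANNNNTA, TEAD CATTCC, the NFI half-site TTGGCA, KLF CCACCC, the nuclear receptor half-site AGGTCA and the TATA box TATAAA.
Myh3 promoter, chr11:67078050-67078299, plus strand: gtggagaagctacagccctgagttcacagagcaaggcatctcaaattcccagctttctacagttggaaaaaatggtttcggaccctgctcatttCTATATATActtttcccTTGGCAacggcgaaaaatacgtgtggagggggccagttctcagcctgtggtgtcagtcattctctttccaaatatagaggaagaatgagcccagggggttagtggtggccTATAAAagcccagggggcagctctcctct
Myh4 promoter, chr11:67237562-67237811, plus strand: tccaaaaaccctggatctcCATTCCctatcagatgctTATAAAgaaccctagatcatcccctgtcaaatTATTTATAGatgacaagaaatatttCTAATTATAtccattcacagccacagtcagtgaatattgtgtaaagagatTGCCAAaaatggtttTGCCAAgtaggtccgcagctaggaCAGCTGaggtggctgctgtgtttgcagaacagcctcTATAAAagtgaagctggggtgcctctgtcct
Chrng promoter, chr1:87205561-87205810, plus strand: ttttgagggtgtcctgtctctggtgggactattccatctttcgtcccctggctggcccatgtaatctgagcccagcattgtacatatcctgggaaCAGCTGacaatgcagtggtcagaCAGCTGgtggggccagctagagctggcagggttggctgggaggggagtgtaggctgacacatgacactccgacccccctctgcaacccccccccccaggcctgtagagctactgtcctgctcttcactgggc
Tnnt2 promoter, chr1:135836084-135836333, plus strand: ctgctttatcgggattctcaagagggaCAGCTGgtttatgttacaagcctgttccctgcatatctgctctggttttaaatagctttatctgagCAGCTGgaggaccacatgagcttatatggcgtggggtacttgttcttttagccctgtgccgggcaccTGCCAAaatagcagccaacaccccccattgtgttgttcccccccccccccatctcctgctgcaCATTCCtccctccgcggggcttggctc
Ucp3 promoter, chr7:100472741-100472990, plus strand: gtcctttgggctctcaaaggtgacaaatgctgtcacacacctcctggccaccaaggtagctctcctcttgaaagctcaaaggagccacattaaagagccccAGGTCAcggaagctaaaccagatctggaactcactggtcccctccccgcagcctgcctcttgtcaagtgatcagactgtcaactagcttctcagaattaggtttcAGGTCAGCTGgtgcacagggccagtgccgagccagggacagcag
Fbp2 promoter, chr13:62858401-62858650, minus strand: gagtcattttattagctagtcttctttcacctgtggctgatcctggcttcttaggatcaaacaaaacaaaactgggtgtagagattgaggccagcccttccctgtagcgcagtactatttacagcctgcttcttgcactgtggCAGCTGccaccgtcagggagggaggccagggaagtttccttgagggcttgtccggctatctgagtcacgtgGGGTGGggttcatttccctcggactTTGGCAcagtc
Positions are counted back from the start. The Myh3 and Myh4 promoters, which served the embryonic and the adult partner of the pair that moved most, both held a TATA box near the start, at -29 and -31, and both held a MEF2 match at -156. Myh4 had a further MEF2 match at -181, which overlaps a TATA match at -179 on the other strand, together with 2 NFI half-sites and 1 match each to TEAD and the E-box, the last at -67. Chrng had E-boxes at -155 and -132, and Tnnt2 had E-boxes at -223 and -157, an NFI half-site at -90 and a TEAD match at -27. In Ucp3 an AGGTCA half-site at -44 ran into an E-box at -40, and a second half-site lay at -149. Fbp2 had an E-box at -107, a KLF match at -36 and an NFI half-site at -11. Such short motifs are common. The E-box was found in 13% of all 32851 promoters of the table, MEF2 in 19%, TEAD in 12.6%, NFI in 12.3%, KLF in 28.1%, the AGGTCA half-site in 14.0% and TATAAA in 12.4%.

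Motif shares were also counted over all measured genes with a promoter in the table, without a test. The E-box stood in 17.6% of 1078 promoters of genes higher in RNA, 13% of 2899 lower and 11.9% of 10062 within 2-fold. The MAF half-site TGCTGA was in 17.6%, 13% and 12.5%, and the NFI half-site in 13.7%, 9.90% and 9.65%. KLF was alike, in 33.2%, 33.5% and 32.3%, and MEF2 too, in 14.7%, 13.9% and 13.8%. Among 160 promoters whose start was higher in ATAC, MEF2 was in 23.8% against 14.0% of 186 lower ones and 13% of those within. The AGGTCA half-site was in 18.1%, 9.68% and 10.4%, the MAF half-site in 18.8%, 10.8% and 12.3%, and NFI in 15%, 10.8% and 9.57%. TATAAA was in 10.6%, 6.45% and 6.19%, the E-box in 18.8%, 17.2% and 12.1%, and TEAD in 14.4%, 14.0% and 10.6%. KLF went the other way, in 28.8%, 40.9% and 32.7%. These are counts of letters in a window, and a match is neither a bound site nor a cause.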

How the data were processed

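Nuclear RNA and ATAC were measured in 5 libraries, 1 per group, and groups were taken from the labels. The authors deposited, per library, raw whole-number counts: UMIs per gene over 32285 genes and ATAC counts per peak. Per the labels and the study's methods they were made with Cell Ranger ARC 2.0.0 on mm10, with intronic reads included and peaks called within each library. No normalization had been applied.

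UMIs and ATAC counts of the nuclei that met the rule were summed per library and scaled to the library's total (CPM). Levels have exact Poisson and ratios exact conditional 95% intervals, shares of nuclei exact binomial ones, which cover counting error only. A gene with 0 UMIs was set to a floor of 3. No test was possible with 1 library a group. A gene was measured at 20 or more UMIs in 1 library and called at 2-fold. TMM factors came from edgeR 4.0.16 and size factors from DESeq2 1.42.0 (R 4.3.3), used for scaling only. Sums and shares were made with Python 3.11.15, numpy 2.4.6, pandas 2.3.3 and scipy 1.17.1, and the scripts were tested on simulated data. Gene starts and coordinates, counted from 1, are those of the GENCODE vM21 annotation of GRCm38, the build of the files, and promoter sequences are those of RefSeq, which held 73 of 94 named and paired genes.

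Named genes are the 15 highest and 15 lowest by the interval bound nearest to 1 (at least 100 UMIs in 1 library), the 8 largest rises and falls in CPM, up to 4 members each way of each of 25 lists, and 34 isoform pairs. The members and lists were chosen with earlier results of these data known. Alternatives were other scalings, count minimums, limits of the rule, depth and ATAC counting, and 4 alternatives without mesenchymal-marker nuclei were chosen after seeing the data. A few genes and 1 isoform pair are counted in the totals but not reported here.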

Additional observations from a re-analysis of the deposited data

How the results depend on the processing

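Counts of called genes moved mainly with scaling and with the count minimum. Against 1124 genes higher and 3121 lower, TMM gave 1748 and 1858 and DESeq2 size factors 1802 and 1781. A minimum of 100 UMIs left 648 higher and 1770 lower (2418 in all), a minimum of 1 UMI gave 3353 and 5431 (8784), and nuclei thinned to 1000 UMIs gave 664 and 1555 (2219). The median log2 ratio, -0.37, was -0.026 with TMM, -0.00078 with DESeq2, -0.28 without the 100 most abundant and the mitochondrial genes, -0.34 and -0.30 with minimums of 100 and 1 UMIs and -0.29 after thinning. It was -0.39 in nuclei of 3000 to 15000 UMIs, -0.32 with nuclei weighted equally, -0.43 without nuclei holding markers of any other class (531 and 468 nuclei left), and -0.47 without mesenchymal-marker nuclei, an alternative chosen after seeing the data. At gene starts, 170 lower ATAC calls became 289 when scaled to counts in overlapping peaks and 453 without mesenchymal-marker nuclei (634 in all), and counting each nucleus and peak once, which is not scaled for depth, gave 32 higher and 643 lower (675). The isoform pairs kept their counts within 1.5 times under every alternative, with 23 to 25 pairs past 2-fold toward the adult partner. Of single genes, Nnat turned to -0.61 with a Ttn limit of 2% and to -0.37 without mesenchymal-marker nuclei, Nrxn3 to -1.29 and Col15a1 to -0.67 without the latter. Without nuclei of any other class Nrxn3 turned to -0.15, Nrg1 to 0.14 and the Cox7a2/Cox7a1 shift to -0.53. The cause of these changes was not tested. No paired analysis was possible because each group is 1 library and no result comes from a test, and for the same reason no library could be left out.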
